A study of Mus musculus with 48 samples.

Results

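The passage from the end of the feeding night to the first hours of light was followed in the livers of mice without a working Nono gene. It was read from 6 of the 48 RNA-seq libraries of the series. These are the Nono-/- libraries of total liver RNA at ZT20, ZT22 and ZT0, called late night here, and at ZT2, ZT4 and ZT6, called early light, where ZT counts the hours since lights on. All animals were C57BL/6 mice of 14 weeks kept in cycles of 12 h light and 12 h dark, and for a week they had food in the dark only. The column names mark ZT14 to ZT22 as fed and do not so mark ZT0, which was placed with the late night as the hour at which the dark phase ends. Each library is a pool of 2 mice, and the labels do not say how the nono-/- allele was made. Wild-type mice of the same strain, age, light and food schedule gave 6 libraries at the same hours, which serve as the comparison. The 3 libraries of a window come from 3 different hours, so no library has a repeat at its own hour. Change within a window therefore counts as spread in every test. A p-value here is set against the variation of pools within windows, part of which may be technical.

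The liver clock is a feedback loop in which the BMAL1 and CLOCK activators switch on their own repressors, the PER, CRY and REV-ERB proteins. The REV-ERB genes Nr1d1 and Nr1d2 are active by day, and their products repress Arntl, the gene of BMAL1. Feeding acts on the same tissue through insulin, which favours glycogen and fat synthesis and holds back autophagy, the breakdown of the cell's own contents. NONO, a nuclear protein of the DBHS family, binds RNA and DNA and is a known partner of PER proteins.

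Nono exons were read first as a check of the labels. In the 6 Nono-/- libraries they had 0 FPKM at ZT20, 0.091 at ZT22 and 0.029 at ZT0, and 0 at ZT2, 0 at ZT4 and 0 at ZT6, against 9.89 FPKM at ZT20, 10.5 at ZT22 and 9.199 at ZT0, and 10.1 at ZT2, 9.798 at ZT4 and 10.05 at ZT6 in wild type, so that all 12 libraries matched their genotype. The 6 libraries held between 9.91 M reads (ZT2) and 18.7 M reads (ZT6), and introns took 15.8% to 19.97% of the reads. The intron share was 18.2% ± 1.85 in late night and 17.6% ± 1.57 in early light (SD, n = 3 each, exact permutation p = 0.7, where 0.1 is the smallest p that 3 against 3 allow). In exons, the share of the 10 most heavily read genes was 21.6% ± 0.593 in late night and 19.99% ± 0.642 in early light, with no overlap between the windows (SD, n = 3 each, exact permutation p = 0.1), and the part of this in the results was not tested. Hepatocyte markers, including albumin, summed to 42606 to 50197 FPKM in late night and 41345 to 44461 FPKM in early light. Of 6 fat markers, 3 were at 0 in all early light libraries, while the ZT22 library had 22.1 FPKM of Adipoq, the adiponectin gene, 13.2 FPKM of Retn, the resistin gene, and 42.9 FPKM of Cfd, which encodes adipsin. Muscle genes were present in 2 late night libraries, with 6.21 and 6.06 FPKM of Tnnt3, which encodes a troponin of skeletal muscle, at ZT20 and ZT22 and 0 in the other 4 libraries. Summed over all 6 fat markers, the libraries had 1106 to 1619 FPKM in late night and 1223 to 1607 FPKM in early light. In early light nearly all of this sum was the marker Car3, since Adipoq, Plin1 and Lep were at 0 there. Retn and Cfd were at most 13.2 and 42.9 FPKM in any Nono-/- total RNA library. The sums therefore do not show whether the other fat markers were level between the windows. Summed over 6 muscle markers, the late night libraries had 0.343 to 18.2 FPKM and the early light libraries 0.463 to 1.09 FPKM. The part of this fat and muscle RNA in the results was not tested gene by gene, and counts without both libraries are given below.

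**Figure D1:**
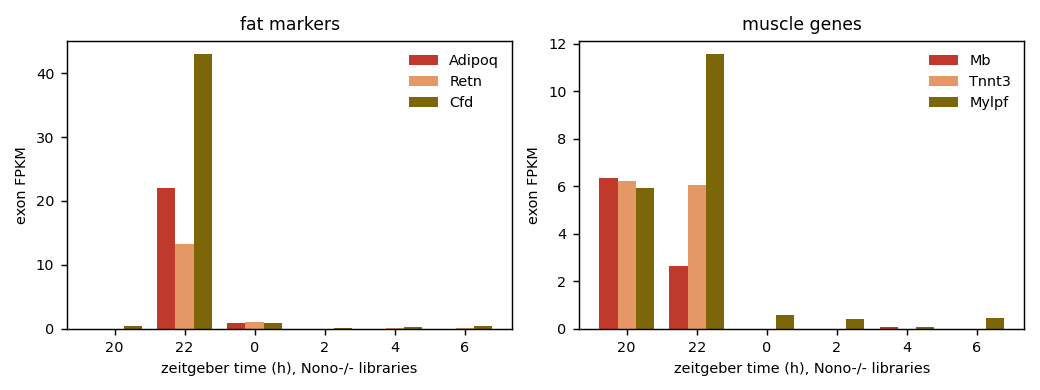
Exon FPKM of 3 fat markers and 3 muscle genes in the 6 Nono-/- total RNA libraries, 1 bar per library and gene. Fat markers stand out at ZT22, where Adipoq had 22.1 FPKM, and muscle genes at ZT20 and ZT22, where Tnnt3 had 6.21 and 6.06 FPKM.

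The first comparison asked which messenger RNAs, read from exons, differ in level between the windows in Nono-/- liver. The REV-ERB alpha gene Nr1d1 rose most. Gabarapl1 and Atg14 of autophagy and Klhl24, Fbxo21 and Fbxl20, adaptors of ubiquitin ligases, rose with it, and Aacs and Ppp1r3b, genes of lipid synthesis and of glycogen, fell. Early light had 17 higher and 6 lower genes among 11352 tested (limma with Benjamini-Hochberg adjustment, threshold 0.05), which is 0.203% of the genes (0.15% higher and 0.0529% lower). In each of the 23 the 3 libraries of one window lay above all 3 of the other, as they did for 13.7% of all genes tested (7.72% higher and 5.94% lower). The median change of all genes was -0.01 (log2). These 23 calls rest on few libraries: without ZT4 there were 0 calls, without ZT6 or ZT22 there were 3 each, without ZT20 there were 6, and without ZT2 there were 61. With both ZT20 and ZT22 left out, which was decided on once the values were known, the fit called 4 genes, of which 2 are among the 23. Without scaling 11 genes were higher and 1 lower, 91.7% higher against 73.9% with it. All 23 kept their direction in each setting in which they were tested.

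Nr1d1 had 0.178 FPKM at ZT20, 0.269 at ZT22 and 0.203 at ZT0, and 1.35 at ZT2, 4.46 at ZT4 and 7.51 at ZT6. Its 3 late night values lay within 0.178 to 0.269 FPKM, and each early light library was above the one before. The change was 3.50 ± 0.56 (log2 ± SE, limma adjusted p = 0.0146), and over the windows the libraries held 23 and 621 Nr1d1 reads, a ratio of 22.98 per read sequenced (95% exact interval 15.2 to 36.5, counting error only). Over the whole day its level was lowest at ZT20 and highest at ZT8, with 8.41 FPKM. Nr1d1 lies on chromosome 11 from 98767932 to 98775377 on the minus strand of mm10, and its end overlaps Thra on the other strand. The counting is not stated to use strand, so reads in the overlap cannot be assigned. Among genes given below without a call in exons, Ciart, Bhlhe40, Dbp, Irs2, Nop56 and Txnip also overlap a gene on the other strand. Leaving out single libraries moved the change between 3.01 and 4.14, and the call held in 2 of 6 such fits (highest adjusted p = 0.118).

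Its paralog Nr1d2, which encodes REV-ERB beta, had 3.39 FPKM at ZT20, 1.7 at ZT22 and 1.89 at ZT0, and 5.27 at ZT2, 8.96 at ZT4 and 20.7 at ZT6. The windows did not overlap, but the exon change of 2.06 ± 0.49 did not pass (limma adjusted p = 0.0973). Arntl, the gene of BMAL1, had 8.62 FPKM at ZT20, 11.2 at ZT22 and 8.99 at ZT0, and 10.96 at ZT2, 11.7 at ZT4 and 3.51 at ZT6, with the low value at ZT6 alone, and its change was -0.36 ± 0.76. Clock had a change of -0.28 ± 0.23, with 11.6 to 14.6 FPKM in late night and 9.45 to 12.3 in early light.

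Among the Period and Cryptochrome repressors, Per2 had 2.87 FPKM at ZT20, 5.01 at ZT22 and 1.92 at ZT0, and 0.885 at ZT2, 0.593 at ZT4 and 1.202 at ZT6. Its early light values were all lower, yet the change of -1.75 ± 0.39 missed the threshold (limma adjusted p = 0.0734). Cry1 had 8.29 to 12.3 FPKM in late night and 1.53 to 5.95 in early light, with a change of -1.63 ± 0.45 (adjusted p = 0.163). Per1 stood at -0.95 ± 0.54 and Per3 at -0.91 ± 0.66, and for both genes the libraries of the windows overlapped. Per3 had fallen to 0.255 FPKM by ZT0 and was back at 1.20 FPKM at ZT6. Of 9 core clock repressors tested, 1 rose (Nr1d1), 0 fell and 8 did not pass. Over all genes 0.15% were called higher and 0.0529% lower. The median of the list was -0.91 against -0.01 over all genes. Among the other repressors, Ciart (-1.41 ± 0.68) and Bhlhe40 (-0.70 ± 0.35) had overlapping windows too, and Cry2 is not reported here.

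**Figure D2:**
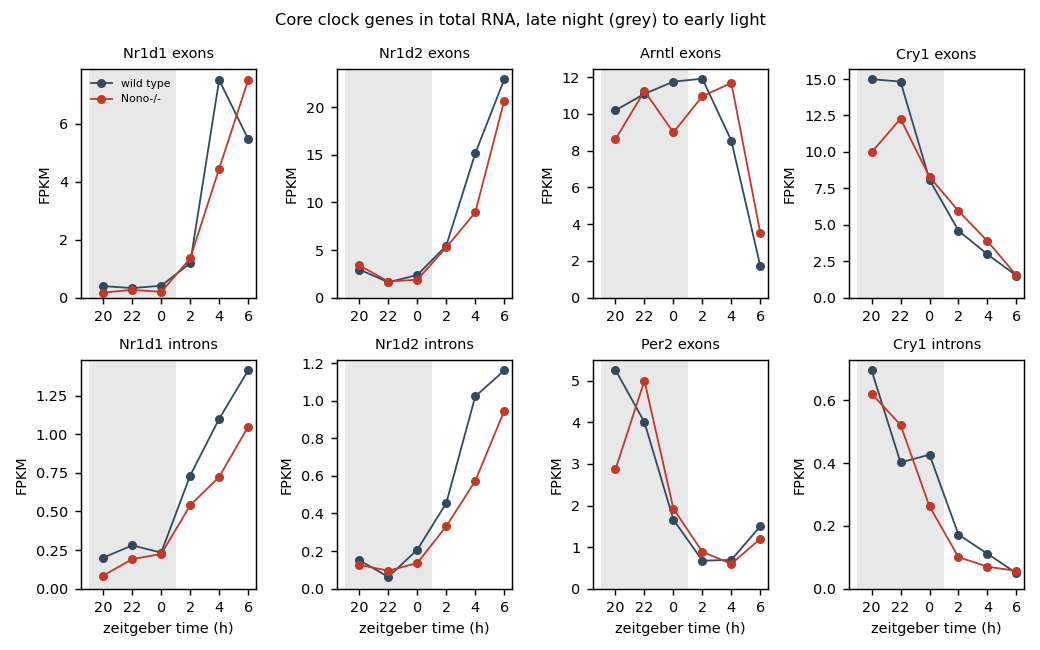
FPKM in total RNA of core clock genes at ZT20 to ZT6, 1 point per library, Nono-/- in red and wild type in dark blue, with late night shaded. In Nono-/- liver Nr1d1 exons went from at most 0.269 FPKM in late night to 7.51 FPKM at ZT6, while Arntl exons were low at ZT6 alone, with 3.51 FPKM.

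The clock output factors, a group of bZIP proteins that carry the rhythm to metabolic genes, were not called. Dbp had 0.88 FPKM at ZT20, 1.199 at ZT22 and 0.376 at ZT0, and 0.785 at ZT2, 0.862 at ZT4 and 11.5 at ZT6, so that its rise was in the ZT6 library alone. Tef was 4.67 to 14.7 FPKM in late night and 4.07 to 17.2 in early light, Hlf 3.099 to 3.74 FPKM in late night and 1.94 to 2.83 in early light and Nfil3, which opposes them at the same sites, 11.4 to 12.5 FPKM in late night and 5.21 to 19.7 in early light. Of these 4 genes only Hlf had windows that did not overlap (change -0.61 ± 0.23, adjusted p = 0.325). Among 13 rhythmic enzymes and other outputs 0 passed, 12 had a negative change and the median was -1.01. The libraries did not overlap for 1 that was higher and 6 that were lower, beside 7.72% and 5.94% of all genes. Alas1, the first enzyme of heme synthesis, had 139.9 FPKM at ZT20, 96.6 at ZT22 and 70.98 at ZT0, and 20.8 at ZT2, 22.5 at ZT4 and 26.98 at ZT6. All 3 late night values of Alas1 were above 70 FPKM and all 3 early light values below 28 FPKM, with a change of -2.13 ± 0.57 (adjusted p = 0.149). Noct, a gene related to deadenylases, had 3.53 to 4.604 FPKM in late night and 0.955 to 2.37 in early light, and Usp2, a ubiquitin protease, 0.522 to 3.696 FPKM in late night and 0.253 to 0.465 in early light. Rgs16, a regulator of G protein signalling, went the other way, with 0.0420 to 0.128 FPKM in late night and 0.390, 0.484 and 8.39 FPKM at ZT2, ZT4 and ZT6.

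Genes of autophagy were among those that rose. Gabarapl1, a member of the ATG8 family that coats autophagosomes, had 54.97 FPKM at ZT20, 50.5 at ZT22 and 67.2 at ZT0, and 101 at ZT2, 112 at ZT4 and 168 at ZT6. It rose by 1.06 ± 0.20 (log2 ± SE, limma adjusted p = 0.0382) and was highest of the whole day at ZT6. It overlaps 1700101I11Rik on the other strand, and reads in the overlap cannot be assigned. Atg14, a subunit of the lipid kinase complex that starts autophagosome formation, had 1.88 to 2.65 FPKM in late night and 3.902 to 4.73 in early light and rose by 0.82 ± 0.16 (log2 ± SE, limma adjusted p = 0.0388). Of 21 autophagy and lysosome genes tested, 2 rose, beside 0.15% of all genes, 0 fell and 19 did not pass. The list median was 0.14. With the 2 that rose, 6 of the 21 had all early light values above all late night values, beside 7.72% of all genes. Among the other 4 were Sqstm1, the cargo receptor p62, with 76.5 to 92.9 FPKM in late night and 106 to 135 in early light, and Wipi1, which binds the forming membrane, with 1.47 to 1.65 FPKM in late night and 2.02 to 3.302 in early light (Wipi1 was chosen after its values were seen). Ctsb, a lysosomal protease, had no such separation.

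The RefSeq promoter of Atg14 (GRCm38.p6, chr14:47568385-47568684, minus strand, 250 bases before the start to 50 after) is shown because it was the only promoter of the called genes that held an E-box, the letters CACGTG, which the clock activators bind. Of the 23 genes, 14 had an entry. In capitals are a D-box match to TTATGNAA, read on the other strand at bases 41 to 48, and the E-box at bases 250 to 255:
Atg14: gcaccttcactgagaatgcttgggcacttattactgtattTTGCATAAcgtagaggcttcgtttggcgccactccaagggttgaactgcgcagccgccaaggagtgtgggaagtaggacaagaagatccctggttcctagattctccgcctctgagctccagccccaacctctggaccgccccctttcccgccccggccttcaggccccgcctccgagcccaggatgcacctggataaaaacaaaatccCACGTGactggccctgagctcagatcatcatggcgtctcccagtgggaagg
Searched on both strands, the E-box was in 7.15% and the D-box in 3.385% of 32851 promoters of the same length. Of the 14 called genes with an entry, 1 held each of these motifs, Atg14 in both cases. The promoter of Nr1d1 held no match to any motif searched. A match is a stretch of letters and was not tested as a binding site.

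Klhl24, which encodes a kelch adaptor of a cullin ligase, had 13.2 FPKM at ZT20, 7.72 at ZT22 and 9.32 at ZT0, and 20.8 at ZT2, 24.5 at ZT4 and 29.7 at ZT6 and rose by 1.27 ± 0.22 (log2 ± SE, limma adjusted p = 0.02199). Fbxo21, an F-box gene, had 5.995 FPKM at ZT20, 5.62 at ZT22 and 6.404 at ZT0, and 10.9 at ZT2, 13.7 at ZT4 and 24.6 at ZT6, which is a rise of 1.30 ± 0.24 that is steepest at ZT6. Fbxl20, also an F-box gene, rose by 0.91 ± 0.18. Fbxl20, Rcl1, Wbscr27 and Zfp39 were chosen after their values were seen. Ubb, a polyubiquitin gene, had 26.2 to 35.3 FPKM in late night and 37.6 to 46.7 in early light and just missed the threshold (0.48 ± 0.10, adjusted p = 0.0588). The proteasome and ubiquitin list as a whole had 0 of 18 called and a median of 0.02.

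Ocln, which encodes occludin of the tight junctions, was the most even of the rises. It had 5.305 FPKM at ZT20, 5.91 at ZT22 and 5.34 at ZT0, and 14.7 at ZT2, 15.5 at ZT4 and 15.4 at ZT6. Late night values lay within 5.30 to 5.91 FPKM and early light values within 14.7 to 15.5 FPKM, so the level changed between ZT0 and ZT2 and not within a window. It rose by 1.39 ± 0.20 (log2 ± SE, limma adjusted p = 0.00665) and kept its call in 5 of 6 fits without 1 library. Tcp11l2 had 5.05 FPKM at ZT20, 2.798 at ZT22 and 2.52 at ZT0, and 8.24 at ZT2, 15.3 at ZT4 and 14.3 at ZT6. It rose by 1.80 ± 0.25 (log2 ± SE, limma adjusted p = 0.00565), also kept in 5 of 6. The other exon calls described here held in 0 (3110062M04Rik and 1700092C10Rik) to 3 of 6 such fits. For Ocln and Tcp11l2 the exception was the fit without ZT4 (adjusted p = 0.0644).

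The other genes that rose were less well defined. 8430408G22Rik had 5.94 to 9.15 FPKM in late night and 41.4 to 45.6 in early light. It lies inside Rassf4 on the other strand, and Rassf4 introns rose too. Tmem140 and 3110062M04Rik rose by 1.08 ± 0.21 and 1.02 ± 0.21, but they overlap on opposite strands and their reads cannot be separated. Mir1957b, in Wdr59 on the other strand, rested on 1 late night read and 11 early light reads, a ratio of 9.36 with an interval of 1.36 to 403. E130102H24Rik, which contains Mir101a and overlaps 0610043K17Rik on the other strand, rose by 0.98 ± 0.18, and 2610528J11Rik rose by 0.93 ± 0.18. Rcl1, whose product works in the maturation of ribosomal RNA, had 31.5 FPKM at ZT20, 30.3 at ZT22 and 28.5 at ZT0, and 42.2 at ZT2, 59.97 at ZT4 and 73.4 at ZT6. Wbscr27 rose by 0.90 ± 0.18 and Zfp39, a zinc finger gene, by 0.77 ± 0.16.

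Of the 6 genes that fell, Aacs and Ppp1r3b had the largest changes. Aacs, the cytosolic enzyme that activates acetoacetate for lipid synthesis, had 21.3 FPKM at ZT20, 33.5 at ZT22 and 11.9 at ZT0, and 5.601 at ZT2, 2.28 at ZT4 and 5.16 at ZT6. Late night values were all above 11 FPKM and early light values all below 6 FPKM, and Aacs fell by -2.35 ± 0.48 (log2 ± SE, limma adjusted p = 0.04595). Ppp1r3b, the subunit that brings protein phosphatase 1 to glycogen, had 112 FPKM at ZT20, 107 at ZT22 and 91.9 at ZT0, and 50.03 at ZT2, 23.3 at ZT4 and 20.98 at ZT6. It fell by -1.88 ± 0.31 (log2 ± SE, limma adjusted p = 0.0201), from its highest value of the day at ZT20. S1pr1, a receptor of sphingosine 1-phosphate, had 29.4 to 34.9 FPKM in late night and 17.6 to 21.3 in early light, a fall of -0.76 ± 0.16 (adjusted p = 0.04795). Nolc1, a nucleolar protein gene, fell by -1.03 ± 0.20, and 1700092C10Rik, which overlaps Nkx2-6 on the other strand, by -1.78 ± 0.35.

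**Figure D3:**
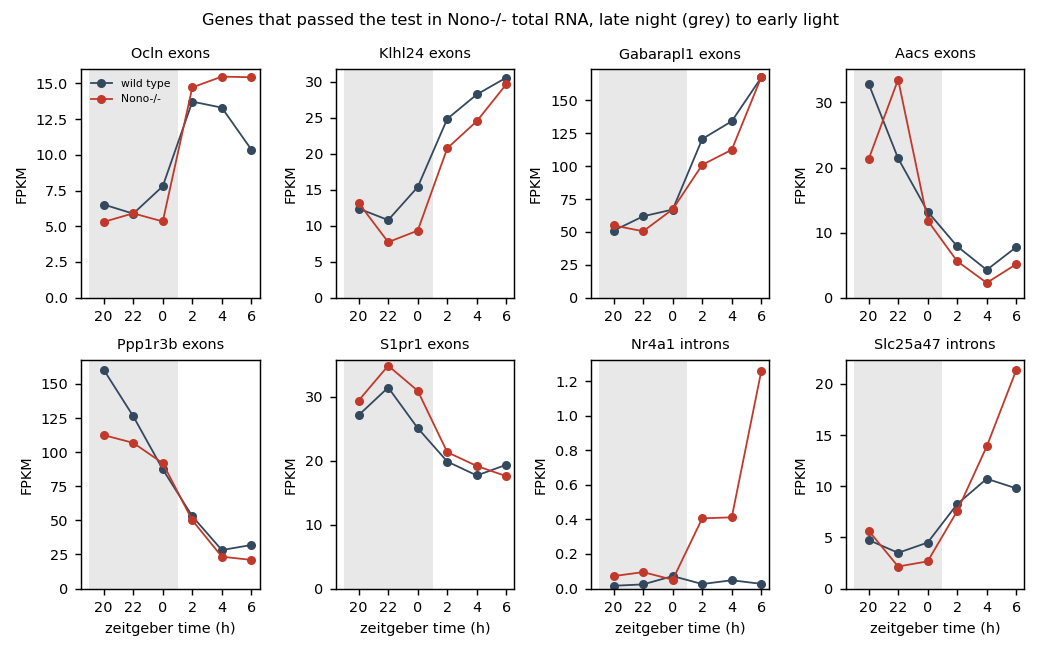
FPKM in total RNA of 8 genes that passed the test in Nono-/- exons or introns, 1 point per library from ZT20 to ZT6, Nono-/- in red and wild type in dark blue, with late night shaded. Ocln steps from at most 5.91 to at least 14.7 FPKM between ZT0 and ZT2, and Nr4a1 introns are raised in the red line with 0.406 to 1.26 FPKM.

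Genes of fatty acid synthesis and its control were lower in early light in 15 of 19 cases by sign. Aacs alone was called, beside 0.0529% of all genes called lower. The list median was -0.41 against -0.01 over all genes. Windows did not overlap for 3 that were lower and 1 that was higher, beside 5.94% and 7.72% of all genes. Fasn, the fatty acid synthase, had 40.8 FPKM at ZT20, 60.2 at ZT22 and 22.5 at ZT0, and 21.8 at ZT2, 13.8 at ZT4 and 20.9 at ZT6, and its change was -1.09 ± 0.45 (adjusted p = 0.385). Thrsp, which promotes fat synthesis, had 506 FPKM at ZT20, 400.2 at ZT22 and 213 at ZT0, and 184 at ZT2, 47.3 at ZT4 and 90.2 at ZT6. The ZT0 and ZT2 values of Fasn and Thrsp lay close together, and Thrsp was lower again at ZT4. Of 25 genes of cholesterol synthesis and uptake 0 passed, 23 had a negative change, and the median was -0.40. The libraries did not overlap for 5 of them, all lower, beside 5.94% of all genes. Sqle, the squalene epoxidase, had 24.1 to 42.2 FPKM in late night and 15.5 to 20.5 in early light (-0.95 ± 0.34, adjusted p = 0.302).

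Among genes of bile acids, Cyp7a1, the rate-limiting enzyme of their synthesis, had 79.4 FPKM at ZT20, 58.3 at ZT22 and 20.7 at ZT0, and 8.34 at ZT2, 6.08 at ZT4 and 24.3 at ZT6. It was lowest at ZT4 and its ZT6 value was above that at ZT0, and the change of -2.13 ± 0.50 did not pass (adjusted p = 0.0973). Nr0b2, which encodes the repressor SHP, had 5.69 to 7.52 FPKM in late night and 12.9 to 16.2 in early light, in the opposite direction. The list had 0 of 15 called and a median of 0.24.

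Of 18 genes of insulin signalling 0 passed, though for 10 the windows did not overlap, 6 higher and 4 lower in early light (beside 13.7% of all genes). Igfbp1, which insulin represses, had 18.7 FPKM at ZT20, 6.96 at ZT22 and 11.2 at ZT0, and 54.2 at ZT2, 42.3 at ZT4 and 38.2 at ZT6. Irs2, an adaptor of the insulin receptor, had 0.383 to 0.741 FPKM in late night and 1.11 to 1.64 in early light, and Trib3, a pseudokinase that binds AKT, 0.273 to 0.581 FPKM in late night and 1.22 to 2.998 in early light. Pik3r1, the regulatory subunit of the PI 3-kinase, was closest to the threshold, with 17.1 to 19.6 FPKM in late night and 7.93 to 11.7 in early light (-0.97 ± 0.21, adjusted p = 0.0578). Pck1, the gluconeogenic enzyme PEPCK, had 373 FPKM at ZT20, 195 at ZT22 and 184 at ZT0, and 613 at ZT2, 509 at ZT4 and 367 at ZT6, with the windows overlapping. The list of gluconeogenesis and fasting signals had 0 of 15 called, 0 separated genes and a median of -0.11. Fat oxidation and ketogenesis had 0 of 27 called and a median of 0.00, with Angptl4, an inhibitor of lipoprotein lipase, at 8.35 to 16.8 FPKM in late night and 18.3 to 24.1 in early light.

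Ribosome biogenesis, the building of ribosomes in the nucleolus, had 1 of 27 genes called, the falling Nolc1, beside 0.0529% of all genes called lower. Its median was -0.36, which lay between -0.38 and -0.27 with 1 library left out. In 12 of the 27 all early light values were below all late night values, beside 5.94% of all genes, and in 0 above. Nop56, of the box C/D particles that modify ribosomal RNA, had 6.78 to 8.13 FPKM in late night and 3.33 to 5.42 in early light, and Rrs1, an assembly factor of the large subunit, 3.02 to 3.48 FPKM in late night and 1.88 to 2.48 in early light. In exons, genes of the cytosolic ribosomal proteins themselves had a median of 0.04, with 0 of 23 called and 0 separated, beside 13.7% of all genes separated. Their introns are given below.

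The interferon response list had the highest median of all lists, 0.54 (0.30 to 0.74 with 1 library left out), with 0 of 18 called. In 8 of the 18 all early light values were higher, beside 7.72% of all genes. Ifit3, an antiviral effector, had 2.75 FPKM at ZT20, 3.61 at ZT22 and 4.28 at ZT0, and 5.06 at ZT2, 6.12 at ZT4 and 6.63 at ZT6. Isg15, an ubiquitin-like modifier (chosen after its values were seen), had 2.32 to 3.26 FPKM in late night and 5.099 to 7.59 in early light. In both genes the ZT6 library was highest. Of 23 acute phase and complement genes 0 passed, 4 had all early light values above all late night values (beside 7.72% of all genes), and the median was -0.21. Saa1 and Saa2, the serum amyloid A genes, had 3203 and 3299 FPKM at ZT20 and 141 and 64.8 FPKM at ZT22.

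Other groups gave no calls in exons. Junb, an immediate early gene, had 0.342 to 0.694 FPKM in late night and 0.824 to 5.37 in early light. Egr1, of the same kind, had 0.16 to 0.363 FPKM in late night and 0.395 to 3.51 in early light. Both genes were lower at ZT2 than at ZT4 and ZT6. Of 13 immediate early genes tested, 9 had a positive and 4 a negative change, with a median of 0.23. Windows did not overlap for 2 of the 13, or 15.4%, beside 13.7% of all genes. Cirbp, a cold-induced RNA-binding protein, was the 1 of 14 heat response genes with a positive change (1.91 to 3.38 FPKM in late night and 3.88 to 11.1 in early light), and the list median was -0.35. Atf4, a factor of the amino acid shortage response, had 57.5 to 63.9 FPKM in late night and 41.8 to 51.1 in early light (adjusted p = 0.0994). Of Nono's relatives, Sfpq had 13.5 to 16.3 FPKM in late night and 12.3 to 13.5 in early light and Pspc1 4.897 to 6.41 FPKM in late night and 5.89 to 6.45 in early light, and the 14 paraspeckle genes had a median of -0.03 with 0 called.

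**Figure D4:**
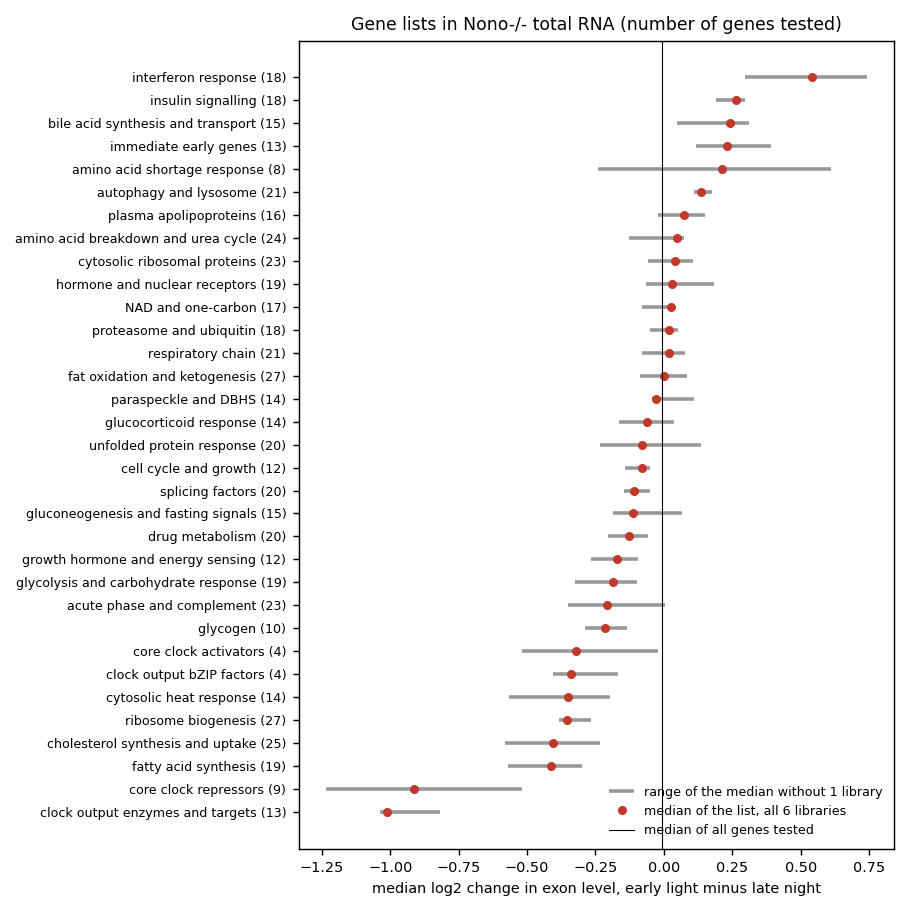
Median log2 change in exon level between early light and late night for each pathway list in Nono-/- total RNA, with the number of genes tested in brackets. Points are medians over all 6 libraries, grey bars their range with 1 library left out, and the line the median of all genes. The interferon list is highest with 0.54 and the clock output enzymes and targets lowest with -1.01.

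Introns were compared next, since intron signal stands mostly for unspliced transcripts. Here 61 genes were higher and 28 lower of 9422 tested (limma, adjusted p under 0.05), 0.945% of the genes (0.647% higher and 0.297% lower). Windows did not overlap for 84 of the 89, and for 14.4% of all genes (4.91% higher and 9.48% lower). Without 1 library 34 to 109 genes were called, with 34 without ZT6 or ZT22, 36 without ZT4 and 45 without ZT0. Leaving out ZT20 alone gave 52, and leaving out ZT20 and ZT22 together, also decided on once the values were known, gave 14. Without scaling 9 were higher and 2 lower, 81.8% higher against 68.5% with it.

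Clock genes were among them. Nr1d1 introns had 0.084 FPKM at ZT20, 0.191 at ZT22 and 0.224 at ZT0, and 0.54 at ZT2, 0.724 at ZT4 and 1.05 at ZT6 and rose by 2.00 ± 0.36 (log2 ± SE, limma adjusted p = 0.0113). Nr1d2 introns had 0.126 FPKM at ZT20, 0.095 at ZT22 and 0.136 at ZT0, and 0.332 at ZT2, 0.573 at ZT4 and 0.947 at ZT6 and rose by 1.94 ± 0.38 (log2 ± SE, limma adjusted p = 0.0166). In both genes each early light library was above the one before and all were above every late night library. Cry1 introns had 0.622 FPKM at ZT20, 0.522 at ZT22 and 0.262 at ZT0, and 0.1 at ZT2, 0.07 at ZT4 and 0.056 at ZT6. They fell by -1.98 ± 0.32 (log2 ± SE, limma adjusted p = 0.00529), and the call held in 6 of 6 fits without 1 library. Of 10 core clock repressors tested in introns 2 rose, 1 fell and 7 did not pass. Over all genes tested in introns 0.647% were called higher and 0.297% lower.

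The RefSeq promoter of Cry1 (GRCm38.p6, chr10:85185005-85185304, minus strand) is shown for the E-box it holds. Capitals mark a match to the FOXO motif GTAAACA at bases 156 to 162 and the E-box CACGTG at bases 191 to 196:
Cry1: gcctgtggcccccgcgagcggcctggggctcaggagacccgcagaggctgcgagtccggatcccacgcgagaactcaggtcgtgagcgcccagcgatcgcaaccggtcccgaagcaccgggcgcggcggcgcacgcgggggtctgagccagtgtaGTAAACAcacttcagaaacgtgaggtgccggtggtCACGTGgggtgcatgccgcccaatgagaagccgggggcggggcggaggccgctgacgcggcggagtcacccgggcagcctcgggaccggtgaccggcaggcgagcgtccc
The FOXO letters, searched on both strands, were in 3.65% of the 32851 promoters, and among the called exon genes in those of Aacs, E130102H24Rik and Tmem140.

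Nr4a1, an orphan nuclear receptor of the immediate early kind, had introns of 0.072 FPKM at ZT20, 0.095 at ZT22 and 0.051 at ZT0, and 0.406 at ZT2, 0.412 at ZT4 and 1.26 at ZT6. They rose by 2.51 ± 0.39 (log2 ± SE, limma adjusted p = 0.00405). In wild type Nr4a1 introns had 0.016 FPKM at ZT20, 0.024 at ZT22 and 0.072 at ZT0, and 0.026 at ZT2, 0.048 at ZT4 and 0.027 at ZT6, at most 0.0720 FPKM, and the difference between the genotypes was 2.53 ± 0.56, which did not pass (limma adjusted p = 0.508). Exons of Nr4a1 were not flat in wild type, where the day's lowest value was 0.133 FPKM at ZT22 and the highest 1.801 FPKM at ZT4. In Nono-/- the highest exon value was 1.687 FPKM at ZT6. Slc25a47, a mitochondrial carrier of the liver, had 5.67 FPKM at ZT20, 2.15 at ZT22 and 2.66 at ZT0, and 7.58 at ZT2, 13.9 at ZT4 and 21.4 at ZT6 and rose by 2.07 ± 0.37 (adjusted p = 0.00991). Rassf4, a Ras-association domain gene, had 0.317 to 0.462 FPKM in late night and 1.74 to 1.95 in early light, but its introns overlap the exons of 8430408G22Rik. Ulk1, the kinase that starts autophagy, rose by 1.37 ± 0.22 (log2 ± SE, limma adjusted p = 0.00513), with 0.196 to 0.395 FPKM in late night and 0.456 to 1.06 in early light, and Gabarapl1 rose by 1.21 ± 0.23 in introns as in exons. Flcn, the folliculin gene, which acts on nutrient sensing at the lysosome, rose by 1.33 ± 0.22 (named after its values were seen). Cpt1a, the gate of fat into mitochondria, rose by 1.03 ± 0.24 (adjusted p = 0.04298), while its exons stood at 0.36.

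Falls in introns included Tsku, which encodes a secreted protein of the liver, with 2.21 FPKM at ZT20, 1.47 at ZT22 and 1.79 at ZT0, and 0.411 at ZT2, 0.209 at ZT4 and 0.533 at ZT6. Its change was -2.13 ± 0.49 (adjusted p = 0.0428). Gstm3, a glutathione transferase, had 0.344 to 1.17 FPKM in late night and 0.1 to 0.132 in early light, and Palld, an actin-binding protein gene, 0.427 to 0.799 FPKM in late night and 0.195 to 0.273 in early light. Bysl, which serves assembly of the small ribosomal subunit, had 0.165 to 0.25 FPKM in late night and 0.049 to 0.116 in early light and overlaps Ccnd3 on the other strand. Edem1, of the disposal of misfolded proteins in the endoplasmic reticulum, fell by -0.77 ± 0.12 (log2 ± SE, limma adjusted p = 0.00313). Its values were 0.877 to 1.01 FPKM in late night and 0.471 to 0.57 in early light, and the call held in 6 of 6 fits without 1 library. Bag3, a cochaperone of the heat response, fell by -1.06 ± 0.24 (adjusted p = 0.0428). Without 1 library the intron calls of Bag3 and Gstm3 held in 0 of 6 fits, those of Tsku and Cpt1a in 1 of 6 and those of Bysl and Nr1d2 in 2 of 6. For 8 of 13 heat response genes all early light intron values were lower, beside 9.48% of all genes, and the list median was -0.89.

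The ratio of exon to intron signal asked whether mature and unspliced RNA moved by the same amount. Of 8892 genes 0 passed in limma (789 had an unadjusted p under 0.05), which is 0% called. The exon change minus the intron change was 1.50 ± 0.47 for Nr1d1 and 0.88 ± 0.22 for Ocln, and neither passed (adjusted p = 0.304 and 0.164). The Nr1d1 intron change itself lay between 0.97 and 2.41 under the other settings of the fit. Cry1 stood at 0.35 ± 0.27 and Ppp1r3b at -0.46 ± 0.23.

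Nuclear RNA of the same livers was set beside total RNA, as a second measure of the same pools and not as new animals. Nuclear introns had 541 higher and 571 lower genes of 12055 tested, 9.22% (4.49% higher and 4.74% lower), and without scaling 32.4% of the calls were higher against 48.7% with it. Without the nuclear ZT0 library 359 genes were called, and without ZT20, ZT22 or ZT6 there were 561, 444 and 570. Nr1d1 rose by 3.02 ± 0.56 (log2 ± SE, limma adjusted p = 0.00533) and Nr1d2 by 2.98 ± 0.37, while Cry1 fell by -2.33 ± 0.47. Nuclear Ocln introns had 0.588 FPKM at ZT20, 0.659 at ZT22 and 0.61 at ZT0, and 1.42 at ZT2, 1.79 at ZT4 and 1.46 at ZT6. They rose by 1.33 ± 0.26, and Tcp11l2, Klhl24 and Gabarapl1 rose by 1.88 ± 0.39, 1.46 ± 0.35 and 1.19 ± 0.32. Aacs fell by -2.46 ± 0.52 and Ppp1r3b by -1.47 ± 0.40. Nr4a1 rose by 2.31 ± 0.49, and Slc25a47 (0.92 ± 0.64, adjusted p = 0.3697) did not pass. Of 25 cytosolic ribosomal protein genes, 11 were called lower in nuclear introns and 0 higher, beside 4.74% of all genes called lower. The median of this list was -0.62. In total introns 0 of the 25 were called, 22 had a negative change and the median was -0.25.

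The last comparison asked whether the switch differs from that in wild type, by the difference between the 2 changes in 1 model. In exons 0 of 11352 genes passed (limma; 388 had an unadjusted p under 0.05), 0% called. Wild type itself had 13 genes higher and 5 lower between the same windows (0.115% and 0.044% of genes), and both genotypes shared 6 higher calls, 35.3% of those in Nono-/- and 46.2% of those in wild type, and 1 lower call. The shared genes were Nr1d1, Gabarapl1, Fbxo21, Klhl24, Rcl1, Tcp11l2 and Ppp1r3b. All 23 had the same sign in wild type. Ocln had 6.52 FPKM at ZT20, 5.88 at ZT22 and 7.803 at ZT0, and 13.7 at ZT2, 13.3 at ZT4 and 10.4 at ZT6 there, a change of 0.90 ± 0.20 (adjusted p = 0.0737), and the difference between the genotypes was 0.49 ± 0.29. For Aacs and Atg14 the wild-type changes were -1.67 ± 0.48 and 0.49 ± 0.16, and the differences were -0.68 ± 0.67 and 0.33 ± 0.23 (adjusted p = 0.898 for both). A missed threshold does not show that the genotypes act alike.

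In exons the 4 smallest p-values of this test belonged to Nup43, a nuclear pore gene (-0.78 ± 0.19), Mir1291, inside Kansl2 and Snora34 (-3.22 ± 0.83), Mylpf, a myosin light chain of skeletal muscle (-4.06 ± 1.07), and Tapbp, the tapasin gene (0.84 ± 0.23), each with an adjusted p of 0.898. Mylpf had 5.92 FPKM at ZT20, 11.5 at ZT22 and 0.562 at ZT0, and 0.406 at ZT2, 0.084 at ZT4 and 0.429 at ZT6, high in the same ZT20 and ZT22 libraries as the other muscle genes.

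**Figure D5:**
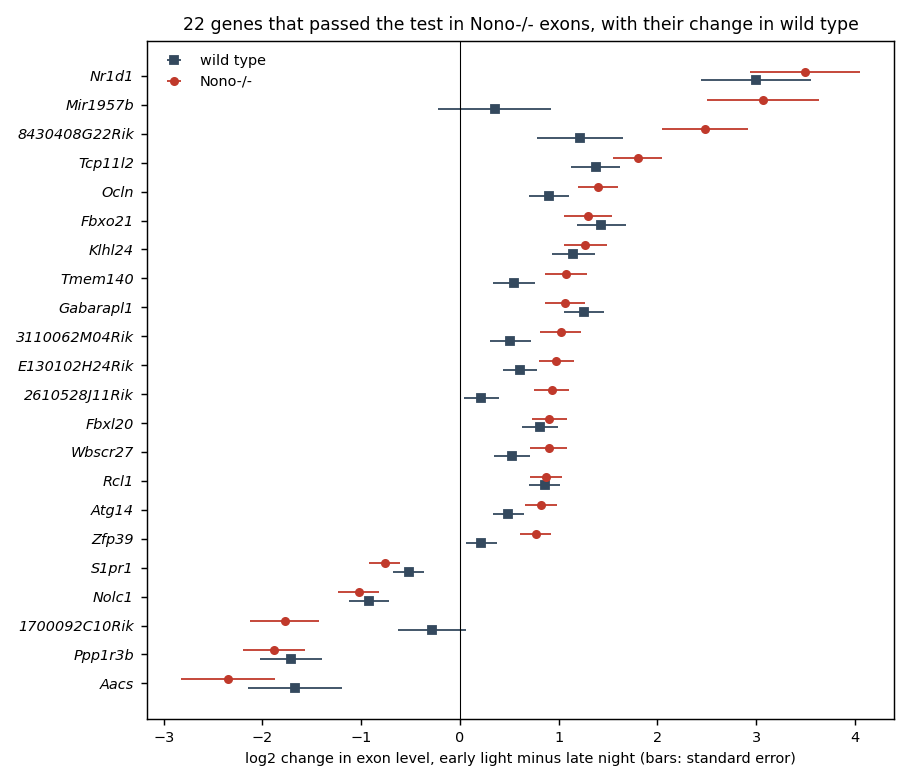
Change in exon level (log2, early light minus late night, bars SE) of 22 of the 23 genes that passed in Nono-/- total RNA, with the same genes in wild type. Red circles are Nono-/- and dark squares wild type, and all 22 lie on the same side of 0 in both, for example Klhl24 at 1.27 and 1.15.

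In introns 1 of 9422 genes (0.0106%) differed between the genotypes, 9330020H09Rik, which lies on chromosome 15 from 98567324 to 98570864 on the plus strand and overlaps Ccnt1 on the other strand. It had 0 FPKM at ZT20, 0 at ZT22 and 0 at ZT0, and 0.901 at ZT2, 1.12 at ZT4 and 1.43 at ZT6 in Nono-/-, and 3.04 FPKM at ZT20, 3.504 at ZT22 and 2.65 at ZT0, and 1.29 at ZT2, 1.18 at ZT4 and 2.204 at ZT6 in wild type. These values come from 112 bases of intron with 0 reads in late night and 6 in early light of Nono-/-. Set against the limit of 3 reads over the late night group (0.705 FPKM), its pooled early light level of 1.20 FPKM was 1.70-fold higher. That ratio leaves out the counting error of the 6 early light reads, so it is not a lower bound of the rise. The fitted difference of 5.72 ± 0.70 (limma adjusted p = 0.00101) depends on the pseudocount and lost its call with one 10 times larger.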

How the data were processed

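The values are FPKM (fragments per kilobase of gene, scaled to library size) that the authors deposited for exons and introns of each gene. They came from HOMER's analyzeRepeats.pl on mm10 with isoforms condensed, per the file headers, which hold no strand option. No source used here gives the HOMER version. The submitters' processing notes name FastQC 0.11.2 and STAR 2.4.0k. Libraries were made with a stranded total RNA kit after removal of ribosomal RNA, per the labels' protocols. There are 24453 genes with exon values and 20771 with intron values.

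Libraries were scaled by the median over genes of the ratio to their geometric mean, and log2(FPKM + 0.1) for exons and log2(FPKM + 0.05) for introns were fitted in limma 3.58.1 with trend (R 4.3.3). Genes needed a mean of 0.5 FPKM (exons) or 0.1 FPKM (introns). All 24 total RNA libraries, in 8 groups of genotype and 4 windows of the day, shared 1 spread with 16 residual degrees of freedom. Nuclear libraries were fitted apart. Changes are early light minus late night on this log2 scale, relative to the median gene, and are too small for low genes. Statements that windows do not overlap use the deposited FPKM. Depth was worked out from the steps that whole reads leave in low FPKM values, of which 100% were whole within 0.1 read. Intervals and limits from reads cover counting error only. The fit was tested on simulated data for the exon comparison (11394 genes), where it recovered 65.7% of 2-fold and 91% of 4-fold changes and called 6 unchanged genes. Its noise was drawn independently for each gene and library, without effects of hour or library that real libraries can share. It also held 99 and 100 changed genes of these sizes, so its rates may be too favourable for the real data. Figures used Python 3.11.15 with matplotlib 3.10.9.

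The windows, the 44 gene lists (33 pathways, 11 sets of markers) and the rules were chosen with earlier results of these data known. The rule named Nono, then up to 12 genes each way in exons and 5 in introns and ratios by size of change among those past 0.05 with no overlap and a higher window of at least 1 FPKM of exons or 0.2 FPKM of introns. It also named up to 8 genes per genotype difference, or the 4 with the smallest p if none passed, all genes of the clock lists, and of each list the first 3 and the 3 with the smallest p each way. Some genes that this rule names are not reported here. Of 649 list genes 587 were tested in exons. Alternatives were other pseudocounts, filters, scaling, libraries, windows, blocks and covariates.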

Additional observations from a re-analysis of the deposited data

Results flagged for a closer look

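The intron signal of 9330020H09Rik changed differently in the genotypes, by a test of the difference between the changes. The difference in log2 change, Nono-/- minus wild type, was 5.72 ± 0.70 (SE, limma adjusted p = 0.00101). In Nono-/- the 3 late night libraries were at 0 and the 3 early light libraries had 0.901, 1.12 and 1.43 FPKM. In wild type the late night libraries had 3.04, 3.50 and 2.65 FPKM and the early light libraries 1.29, 1.18 and 2.20 FPKM. The Nono-/- values rest on 6 reads in all. Reads of Ccnt1, on the other strand, cannot be told from those of this gene.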

How the results depend on the processing

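Counts of called genes depended on which libraries and genes entered the fit. For Nono-/- exons (23 genes) they were 7 with no filter on low values, 12 with no scaling, 5 in the 12 libraries of both windows, 6 in the 6 Nono-/- libraries alone, 3 in the 12 Nono-/- libraries, 58 for ZT4 and ZT6 against ZT20 and ZT22 (16 of them among the 23), and 4 without ZT20 and ZT22, where ZT0 is the lone late night library and is assumed to vary like the others. With 1 library left out they were 0 to 61. For introns (89 genes) they were 46 with the filter 4 times stricter, 11 with no scaling, 24 in the 12 libraries of both windows, 13 in the 6 and 24 in the 12 Nono-/- libraries, 42 for ZT4 and ZT6 against ZT20 and ZT22, 151 with the intron share as a covariate, 14 without ZT20 and ZT22, and 34 to 109 with 1 library left out. For the exon to intron ratio (0 genes) they were 5 with a pseudocount 10 times larger, 6 with no filter, 6 with the stricter filter, 7 in the 12 libraries of both windows, 7 in the 6 and 6 in the 12 Nono-/- libraries, and 0 to 1 with 1 library left out. The genotype difference had 1 exon call for ZT4 and ZT6 against ZT20 and ZT22, and 0 to 2 with 1 library left out. Its intron call (1 gene) became 0 with the larger pseudocount, 2 with no filter, 0 for ZT4 and ZT6 against ZT20 and ZT22, and 1 to 2 with 1 library left out. Nuclear introns (1112 genes) had 711 calls in the 12 libraries of both windows, 267 in the 6 and 611 in the 12 Nono-/- libraries, 446 for ZT4 and ZT6 against ZT20 and ZT22, and 359 to 930 with 1 library left out. Smaller fits have fewer samples; other causes were not tested.

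The hour shared by the genotypes served as a replicate block, although no label pairs the pools. As a random block (consensus correlation 0.279 in exons) it gave 25 exon, 94 intron and 1144 nuclear calls, and 9 for the exon to intron ratio. As a fixed block the genotype difference in introns had 0 calls. Among genes named without a call, Arntl ranged from -0.66 to 0.22 and Nfil3 from -0.59 to 0.43 with 1 library left out. Without ZT20 and ZT22, Per3 stood at 0.10, Tef at 0.44 and Pspc1 at -0.19. Depths of 9.91 to 18.7 M reads limit what low genes can show.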

Other observations

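In other groups, exon windows did not overlap for 10% of splicing factors, 12.5% of amino acid breakdown and urea cycle genes and 10% of drug metabolism genes. For the respiratory chain the share was 4.76%, and for all genes it was 13.7%. Of 20 splicing factors 0 were called in Nono-/- exons and the median change was -0.11. Srsf2, an SR protein, had 22.9 to 26.2 FPKM in late night and 17.8 to 19.3 in early light (-0.49 ± 0.17, limma adjusted p = 0.297). Of 21 genes of the respiratory chain 0 were called, with a median of 0.02, and of 24 genes of amino acid breakdown and the urea cycle 0, with a median of 0.05. Drug metabolism had 0 of 20 called and a median of -0.13. The unfolded protein response had 0 of 20 called in exons, 0 separated genes (beside 13.7% of all genes) and a median of -0.08. In total introns 18 of its 20 genes had a negative change and the median was -0.41. In nuclear introns 8 of the 20 were called lower, beside 4.74% of all genes, and the median was -1.61.

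Kupffer cell markers, of the macrophages of the liver, summed to 234 to 308 FPKM in late night and 271 to 357 FPKM in early light, with 0 of 12 called. Markers of liver endothelium had 0 of 12 called and a median of 0.10. Red cell genes had a median of -0.96 over 5 tested genes with 0 called. That median lay between -1.59 and -0.29 with 1 library left out. Summed over 6 red cell markers, the libraries overlapped, with 71.0 to 135 FPKM in late night and 59.1 to 82.2 FPKM in early light. Txnip, which glucose induces, had 22.1 FPKM at ZT20, 24.4 at ZT22 and 22.3 at ZT0, and 26.6 at ZT2, 32.5 at ZT4 and 62.4 at ZT6, highest at ZT6. Tsc22d3, a target of glucocorticoids, had 64.8 FPKM at ZT20, 65.1 at ZT22 and 66.9 at ZT0, and 60.96 at ZT2, 14.97 at ZT4 and 17.2 at ZT6. Its first early light library, ZT2, was still near the late night level.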
